A study of Mus musculus with 2 samples.

Results

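Brain vessels are lined by endothelial cells and wrapped by mural cells, a term that covers pericytes on capillaries and smooth muscle cells on larger vessels. Transcripts of 34 genes of these cells were compared between an H2A.Z conditional knockout library and its floxed control, out of 19720 genes listed in the deposited table. The genes were chosen as known markers or signals of vessels: 21 are endothelial, 10 are mural (6 of pericytes and 4 of smooth muscle), and 3 (Angpt1, Mcam and Tinagl1) are kept apart because more than one of these cell types, or cells outside the vessel, express them. All 34 were found in the table by Ensembl identifier.

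Knockout animals are labelled H2AZcKO and controls H2AZfl/fl, both on a C57BL/6 background, so the floxed allele is present in each group. H2A.Z is a histone variant that takes the place of histone H2A in some nucleosomes, and the study's title asks how it acts on astrocytes. No source used here names the Cre driver, the cells that lost H2A.Z or any pooling of animals, which limits what the knockout can be taken to model. Tissue is labelled telencephalic brain, with cerebral cortex named in the extraction protocol; titles give embryonic day 16 and the stage field embryonic day 12. The study's design text gives triplicate sequencing, but the table holds 1 count column per genotype, and no source used here says whether a column is a single library or several combined; each column is called a library below. The columns held 9028523 reads in genes in the knockout library and 8474545 in the control library. With 1 column a genotype, no difference below has a replicate check and no test between genotypes was possible. Reads of H2afz, the targeted gene, numbered 535 in the knockout library and 1152 in the control library, a log2 ratio of -1.16 (interval -1.31 to -1.01). Tbr1, a factor of cortical neurons, was abundant in both libraries, with 4495 knockout and 4575 control reads.

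In the embryonic cortex, vessels enter from the overlying meninges and grow towards VEGF and Wnt signals made by neural progenitors. Endothelial cells respond through receptor tyrosine kinases, recruit mural cells by secreting PDGF-B, and acquire the blood-brain barrier through tight junctions and selective transporters. Pericytes carry the PDGF-B receptor and maintain that barrier, while smooth muscle cells contract through actin-based filaments.

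Ratios below are log2 values of knockout over control after scaling by the trimmed mean of M values (TMM) with a prior of 0.5 read, so negative values are lower in the knockout library. Each is followed by an exact 95% Clopper-Pearson interval that covers counting error only. Genes with 20 or more reads over both libraries together were called measured, and those 1.5-fold or more from level were called apart. Of the 34 genes, 33 were measured; Des, with 11 reads, was not, and Slco1a4 and Tinagl1 passed only through their control reads. In bulk tissue, fewer cells of a type and less RNA per cell cannot be told apart.

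Promoter sequences are shown for 2 pairs of genes, contractile genes of smooth muscle (Acta2 and Myl9) and transporters of the barrier (Slco1a4 and Mfsd2a). Each pair sets a gene that was lower in the knockout library beside one that was level, and the pairs were chosen after the values were seen. The sequences are the 250 bases before the RefSeq gene start on GRCm38.p6, 5′ to 3′ on the gene's strand. Capitals mark 10-base windows that match the CArG box, the site of serum response factor, or lie at most 1 base away from it.
Acta2, chr19:34255374-34255623, minus strand: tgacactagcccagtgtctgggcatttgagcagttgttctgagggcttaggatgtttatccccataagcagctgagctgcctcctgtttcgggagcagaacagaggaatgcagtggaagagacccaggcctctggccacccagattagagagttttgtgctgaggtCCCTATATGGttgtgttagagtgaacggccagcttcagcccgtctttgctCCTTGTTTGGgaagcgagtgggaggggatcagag
Myl9, chr2:156775214-156775463, plus strand: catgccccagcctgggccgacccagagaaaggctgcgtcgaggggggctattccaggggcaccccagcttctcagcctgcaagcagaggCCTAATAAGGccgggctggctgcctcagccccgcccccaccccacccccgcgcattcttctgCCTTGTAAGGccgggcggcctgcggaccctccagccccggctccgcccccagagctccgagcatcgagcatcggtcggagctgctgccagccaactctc
Slco1a4, chr6:141856221-141856470, minus strand: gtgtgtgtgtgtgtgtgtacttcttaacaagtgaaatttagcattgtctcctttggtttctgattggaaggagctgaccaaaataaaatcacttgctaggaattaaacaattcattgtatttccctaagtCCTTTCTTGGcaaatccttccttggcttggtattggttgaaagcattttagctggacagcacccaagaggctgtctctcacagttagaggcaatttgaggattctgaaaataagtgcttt
Mfsd2a, chr4:122961189-122961438, minus strand: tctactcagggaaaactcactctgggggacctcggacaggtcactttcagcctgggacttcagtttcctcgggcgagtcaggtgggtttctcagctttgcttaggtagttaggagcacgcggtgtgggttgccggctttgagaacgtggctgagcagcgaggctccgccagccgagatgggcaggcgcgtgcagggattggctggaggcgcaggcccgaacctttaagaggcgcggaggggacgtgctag
Both smooth muscle windows held a pair of CArG-like stretches, starting 84 and 34 bases before the gene start in Acta2 and 161 and 99 bases before it in Myl9, of which the one at 161 in Myl9 was an exact CArG box. The Slco1a4 window held 1 such stretch, starting 120 bases before the start, and that of Mfsd2a held 0. Such stretches, exact or 1 base off, were found in 18.6% of all 32851 promoter windows of this length and exact boxes in 1.47%. The letters CAGGAA or CCGGAA of ETS factors, searched on both strands, were in none of the 4 windows printed, against 35.1% of all windows. They were found 2 times in the window of Emcn and 1 time in that of Robo4, both lower, and 1 time in that of Kdr, which was level. Of other lower genes, a window of Tinagl1 held them 4 times, and those of Vtn and Anpep 0 times. The other genes with these letters were Tek, Tie1, Erg, Abcc9, Rgs5 and Des. Over the 27 windows of the 23 genes that had one, 10 (37%) held the ETS letters and 6 (22.2%) a CArG-like stretch. Beyond the windows printed, CArG-like stretches were found in those of Eng, Erg and Kdr, endothelial genes within 1.5-fold. Tagln had no window. A match describes letters and does not show binding.

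Most endothelial genes were close to level, and a few were lower in the knockout library. Of 21 endothelial genes, all measured, 3 lay 1.5-fold or more lower (Slco1a4, Emcn and Robo4) and 0 higher, where 5.43% of all 14366 measured genes were lower and 3.52% higher by that fold. The median log2 ratio was -0.21, against 0.0018 over all measured genes, with 14 of the 21 below 0. For 15 of the 21 the interval held a ratio of 1. Summed over the class, endothelial reads numbered 2478 in the knockout library and 2687 in the control library, a log2 ratio of -0.17 (-0.25 to -0.09), or 1.13-fold lower.

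Log2 ratios of the measured mural genes ran from -1.57 to 0.52. Among 9 measured mural genes, Vtn, Anpep, Acta2 and Tagln (4 genes) were lower by 1.5-fold or more and 0 were higher by that fold. Over all measured genes 5.43% were lower and 3.52% higher by that fold. Anpep, Acta2 and Tagln had under 100 reads, a range in which 19.6% of all measured genes were lower. The median log2 ratio of the 9 measured mural genes was -0.33. With Des included the median over all 10 was -0.56, and with a minimum of 100 reads Vtn was the 1 mural gene still lower by that fold. Summed mural reads numbered 1487 in the knockout library and 1648 in the control library, a log2 ratio of -0.20 (-0.31 to -0.10), or 1.15-fold lower. The endothelial share of all endothelial plus mural reads, which no scaling affects, was 62.5% (61.0 to 64.0, exact interval) in the knockout library and 62.0% (60.5 to 63.4) in the control library. These intervals overlapped, although single genes in each class were far apart. Sums and shares lean on the most abundant genes. In the mural class Rgs5 alone had 659 knockout and 709 control reads, and without it the mural sum gave a log2 ratio of -0.24.

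**Figure D1:**
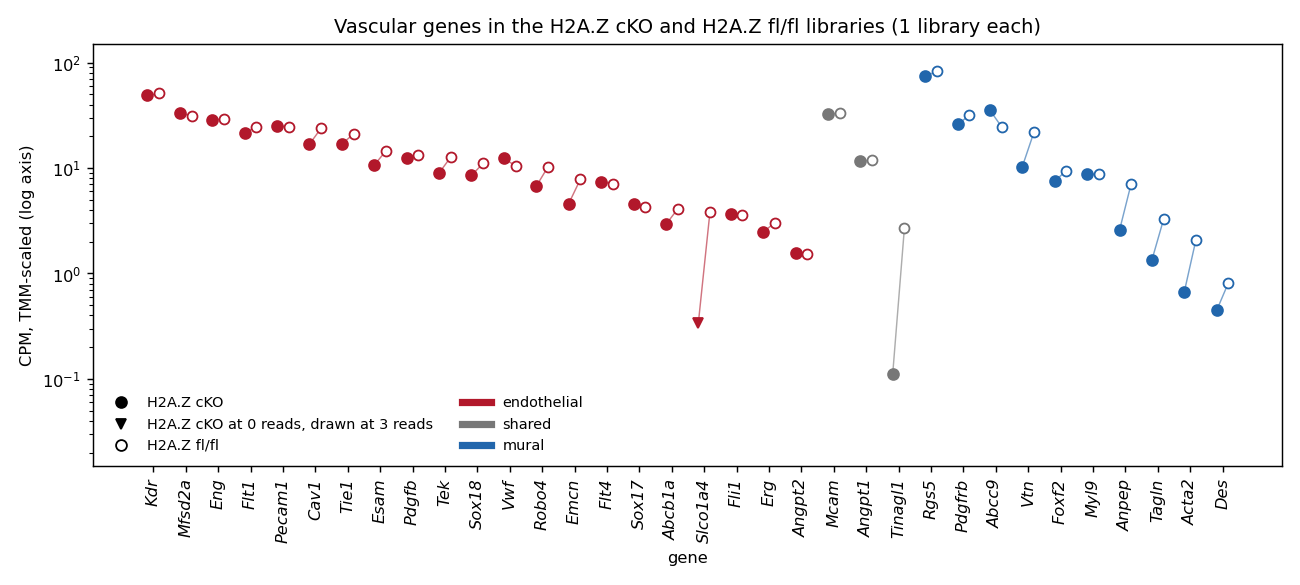
TMM-scaled CPM (log axis) of the 34 vascular genes in the knockout library (filled) and the control library (open), 1 library each; a triangle marks 0 knockout reads, drawn at the floor of 3 reads, 0.336 CPM. Most pairs lie side by side, while Slco1a4, Tinagl1, Vtn, Anpep, Tagln and Acta2 lie visibly lower in the knockout library.

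Endothelial receptors lay within 1.5-fold except Robo4. Kdr, which encodes the main VEGF receptor, had 436 reads (48.9 CPM, a read count set against library size) in the knockout library and 438 (51.1 CPM) in the control library, a log2 ratio of -0.06 (-0.26 to 0.13). Flt1, the VEGF receptor that acts largely as a decoy, had 191 knockout and 212 control reads at -0.21 (-0.50 to 0.08). Flt4, the receptor of VEGF-C, had 66 knockout and 61 control reads at 0.06 (-0.47 to 0.58). All 3 VEGF receptors had intervals that held a ratio of 1. Tek, the angiopoietin receptor, was lower with 80 knockout and 109 control reads, at -0.50 (-0.94 to -0.07), and its partner Tie1 had 151 knockout and 180 control reads at -0.31 (-0.63 to 0.01). Eng, which encodes the TGF-beta and BMP co-receptor endoglin, was level, with 254 knockout and 252 control reads; it overlaps Fpgs on the opposite strand (146 knockout and 135 control reads). Robo4, a roundabout receptor of endothelium, had 60 knockout and 88 control reads, a log2 ratio of -0.61 (-1.11 to -0.12), or 1.52-fold lower (1.09 to 2.15). That value sits at the edge of the 1.5-fold limit, and with DESeq2 size factors it was -0.58 and inside it.

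Ligands did not differ beyond counting error. Pdgfb, through which endothelium attracts pericytes, had 110 knockout and 114 control reads, a log2 ratio of -0.11 (-0.50 to 0.28). Angpt1, the activating ligand of Tek, had 103 reads in each library, at -0.06 (-0.46 to 0.35). Angpt2, a context-dependent antagonist of Tek, had 14 knockout and 13 control reads, and its interval ran from -1.15 to 1.26. Its gene overlaps Mcph1 on the opposite strand (163 knockout and 152 control reads), and no source used here states whether counting used strand.

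Genes of junctions and the cell surface ranged from slightly higher to lower. Pecam1, which encodes the adhesion molecule CD31 and marks nearly all endothelium, had 224 knockout and 210 control reads at 0.04 (-0.24 to 0.32). Vwf, the gene of the clotting factor carrier von Willebrand factor, had 110 knockout and 90 control reads at 0.23 (-0.18 to 0.65). Neither differed beyond counting error. Cav1, which encodes the coat protein of caveolae, had 150 knockout and 205 control reads, a log2 ratio of -0.51 (-0.82 to -0.20). Esam, a junctional adhesion gene, had 95 knockout and 125 control reads at -0.45 (-0.85 to -0.06), so both were lower beyond counting error but by less than 1.5-fold. Emcn, which encodes the sialomucin endomucin of capillaries and veins, had 41 knockout reads (4.60 CPM) and 67 control reads (7.81 CPM), a log2 ratio of -0.76 (-1.36 to -0.18), or 1.69-fold lower. Emcn lies on chromosome 3 from 137341067 to 137432185, 432.3 kb from the targeted H2afz.

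Barrier transporters held the largest endothelial difference. Slco1a4, which encodes an organic anion transporter of brain endothelium, had 0 reads in the knockout library and 33 (3.85 CPM) in the control library. Set against a floor of 3 reads in the knockout library, it was 11.4-fold lower. That value takes the 33 control reads as they stand and leaves out their own counting error. The exact interval, which covers counting error in both libraries, had its upper log2 limit at -3.14. By that limit Slco1a4 was at least 8.79-fold lower. In rat, its counterpart is also known from choroid plexus epithelium. Slco1a4 lies on chromosome 6 from 141805440 to 141856199, in a cluster of related transporter genes among which reads can be shared. Its neighbours Slco1c1, the thyroid hormone and anion transporter of the barrier, with 93 knockout and 121 control reads, Slco1a6, with 5 knockout and 7 control reads, and Slco1b2, with 1 read in each library, were not at 0 in the knockout library. Mfsd2a, the lipid transporter that restrains transcytosis at the barrier, had 298 knockout and 266 control reads at 0.11 (-0.14 to 0.35), and Abcb1a, which encodes the drug efflux pump P-glycoprotein, had 26 knockout and 35 control reads at -0.48 (-1.28 to 0.29). Relative to Mfsd2a in the same library, Slco1a4 made up 0 of 298 reads (exact upper limit 1.23%) in the knockout library and 11.0% of 299 reads (7.72 to 15.1) in the control library. Slco1a4 passed the read minimum only through its control reads, and Mfsd2a was set beside it after the values were seen. These shares therefore restate the same counts and add no separate support. Slco1a4 is the single endothelial gene of the 21 that was at least 2-fold lower.

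Endothelial transcription factors did not differ beyond counting error. Sox17, a factor of arterial endothelium, had 41 knockout and 37 control reads, and Sox18, a related factor of vessel development, 76 knockout and 95 control reads. Erg and Fli1, ETS factors that maintain endothelial identity, had 22 knockout and 26 control reads, and 33 knockout and 31 control reads, in that order of genes. The log2 ratios of these 4 genes lay between -0.38 for Sox18 and 0.09 for Sox17, and all 4 intervals held a ratio of 1.

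**Figure D2:**
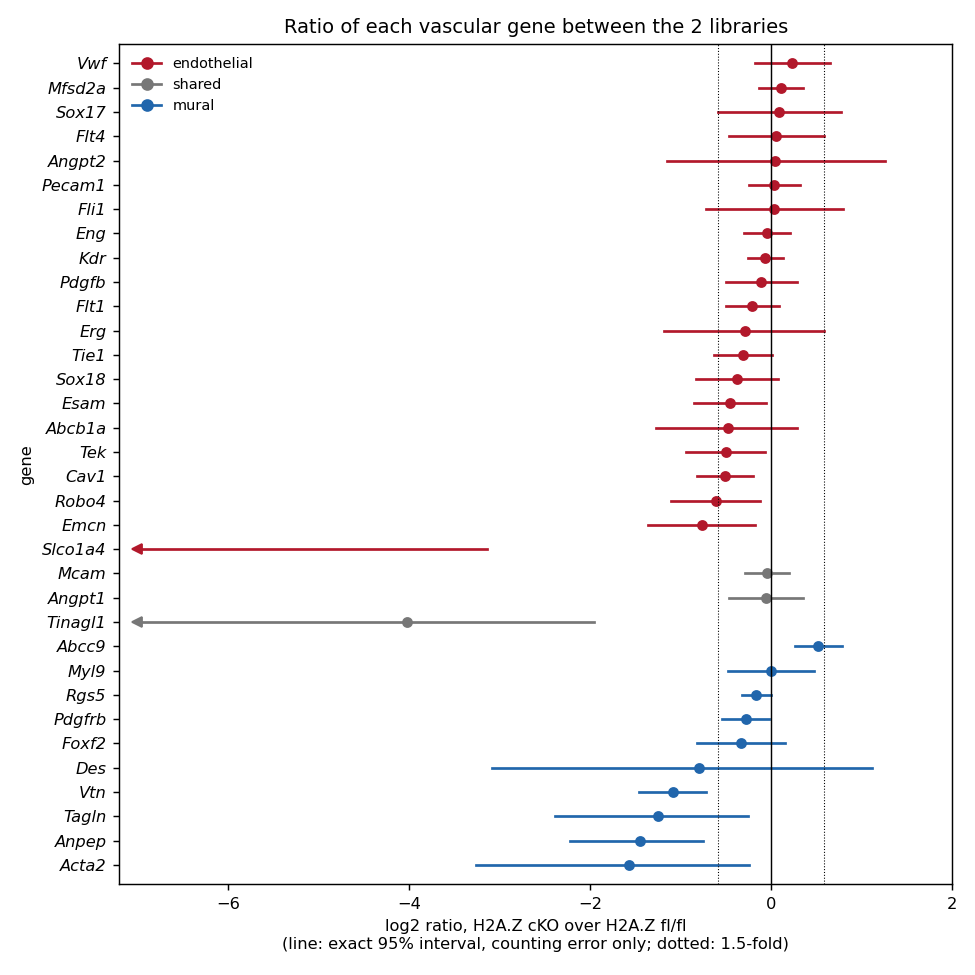
Log2 ratio of knockout over control for each of the 34 genes, by class, with exact 95% intervals for counting error (lines; arrows run off the axis) and dotted lines at 1.5-fold; Slco1a4 has no point because it had 0 knockout reads. Abcc9 at 0.52 is the gene furthest to the right, and Slco1a4, Tinagl1, Acta2, Anpep, Tagln and Vtn lie furthest to the left.

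Among the 3 genes shared between vascular cell types, one stood apart. Tinagl1, which encodes a secreted matrix protein related to tubulointerstitial nephritis antigen, had 1 read in the knockout library and 23 (2.68 CPM) in the control library, a log2 ratio of -4.03 (-9.94 to -1.96). It lies on chromosome 4 from 130164454 to 130175122. Mcam, which encodes the adhesion molecule CD146 of endothelium and pericytes, had 288 knockout and 286 control reads at -0.05 (-0.29 to 0.19). Mcam and Angpt1 were level, and Tinagl1 was the second of the 2 genes whose knockout reads were nearly absent.

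Pericyte genes went in both directions. Rgs5, a G protein signalling regulator and the most abundant of the 34 genes per exon length in both libraries (16.3 CPM per kb in the knockout library and 18.2 in the control library), had 659 knockout and 709 control reads at -0.16 (-0.32 to -0.01). Pdgfrb, the receptor of PDGF-B, had 231 knockout and 270 control reads at -0.28 (-0.54 to -0.02). Foxf2, a forkhead factor of brain pericytes, had 67 knockout and 81 control reads at -0.33 (-0.82 to 0.15). The ratios of these 3 genes were within 1.5-fold; for Rgs5 and Pdgfrb the interval ended just short of a ratio of 1, and for Foxf2 it held it. Abcc9, which encodes the SUR2 subunit of an ATP-sensitive potassium channel, was higher in the knockout library, with 315 reads (35.3 CPM) there and 211 (24.6 CPM) in the control library, a log2 ratio of 0.52 (0.27 to 0.78). Its 1.43-fold difference stays under the 1.5-fold limit. Kcnj8, the pore subunit that pairs with SUR2 and lies next to Abcc9 on chromosome 6, was level, with 58 knockout and 56 control reads at -0.01 (-0.56 to 0.55).

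Vtn and Anpep were the pericyte genes lower by 1.5-fold or more. Vtn, which encodes vitronectin, a matrix protein that pericytes secrete, had 92 reads (10.3 CPM) in the knockout library and 188 (21.9 CPM) in the control library, a log2 ratio of -1.08 (-1.46 to -0.72), or 2.12-fold lower (1.65 to 2.76). Anpep, which encodes the surface aminopeptidase CD13 of pericytes, fibroblasts and some blood cells, had 23 knockout and 61 control reads at -1.44 (-2.22 to -0.75), or 2.72-fold lower (1.68 to 4.67). Set against Pdgfrb within each library, Vtn made up 28.5% (23.6 to 33.7) of the reads of the pair in the knockout library and 41.0% (36.5 to 45.7) in the control library. For Anpep the share was 9.06% (5.83 to 13.3) in the knockout library and 18.4% (14.4 to 23.0) in the control library. Abcc9 went the other way, with 57.7% (53.4 to 61.9) in the knockout library and 43.9% (39.4 to 48.4) in the control library. These 3 genes were picked for ratios far apart, so the shares describe that choice. In order of level per exon length, Vtn was at rank 8 of the 34 in the knockout library and rank 3 in the control library, whereas Abcc9 was at rank 11 in the knockout library and rank 16 in the control library.

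Smooth muscle genes had few reads. Acta2, the smooth muscle actin gene, had 6 reads in the knockout library and 18 in the control library, a log2 ratio of -1.57 (-3.26 to -0.25). Tagln, which encodes the actin-binding protein SM22, had 12 knockout and 28 control reads at -1.25 (-2.39 to -0.26). Both were lower beyond counting error, but their intervals reached as near to level as 1.19-fold. Part of Tagln overlaps Pcsk7 on the opposite strand, which had 294 knockout and 271 control reads. Myl9, a regulatory myosin light chain gene whose promoter is shown beside that of Acta2, was level with 78 knockout and 75 control reads at -0.0003 (-0.48 to 0.48). Des, the intermediate filament gene desmin, had 4 knockout and 7 control reads, and no difference was detectable at this depth. Within each library, Acta2 made up 7.14% (2.67 to 14.9) of Acta2 plus Myl9 reads in the knockout library and 19.4% (11.9 to 28.9) in the control library. Myl9 was set beside Acta2 after the values were seen, so these shares describe that choice. Myh11 and Cnn1, further contractile markers, were barely detected, with 4 knockout and 8 control reads for Myh11 and 2 knockout and 1 control read for Cnn1.

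Depth went along with these calls. Of the 10 measured vascular genes with under 100 reads in the sum, 5 were at least 1.5-fold lower, against 19.6% of all measured genes in that range. Of the 23 with 100 reads or more, 3 were lower (Emcn, Robo4 and Vtn), or 13%, against 1.75% of all such genes. Over both ranges 8 of 33 were lower and all 8 intervals excluded a ratio of 1, where 3.2% of all measured genes were lower by both criteria and 2.02% were higher by both. Slco1a4 and Tinagl1, measured only through their control reads, could not have been level, and these counts include them. The same 2 libraries underlie every gene, so these shares describe the libraries and not the genotypes. Because the vascular genes were chosen with earlier results of these data known, their shares cannot be read as an excess over all genes.

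**Figure D3:**
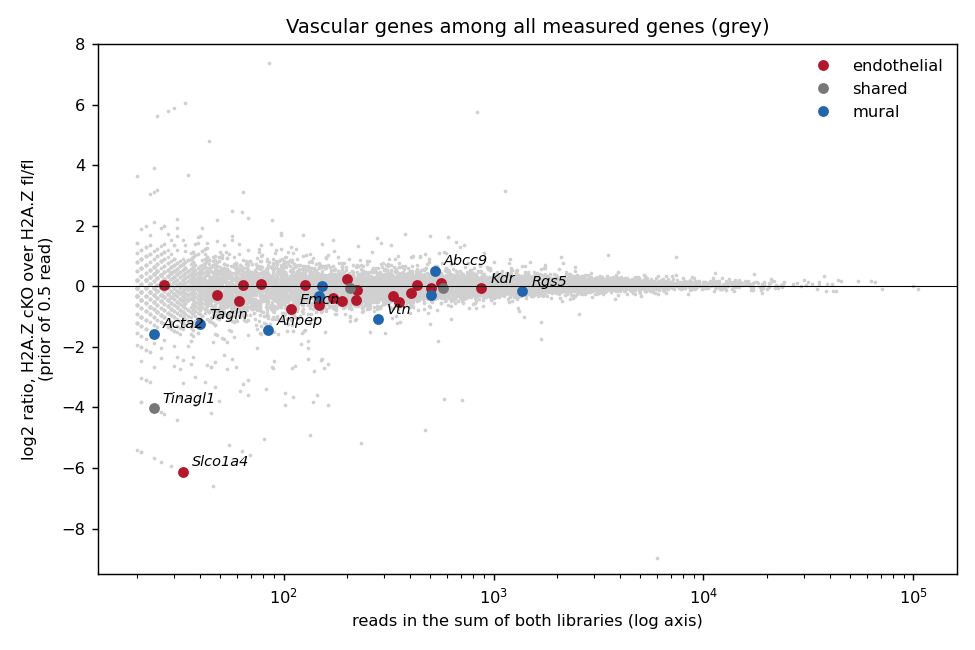
Log2 ratio of knockout over control against the reads of each gene in both libraries together (log axis), for all 14366 measured genes (grey) and the 33 measured vascular genes (coloured by class). Grey points spread widely below 100 reads, where Slco1a4, Tinagl1, Acta2, Tagln and Anpep lie, while Vtn, at 280 reads, lies below most grey points at that depth.

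In the authors' deposited table, 4 of the 34 genes (11.8%) are marked significant, Slco1a4, Tinagl1, Vtn and Anpep, against 318 of all 19720 listed genes (1.61%). The adjusted p-values in the authors' deposited table are 1.3e-07 for Slco1a4, 3.93e-05 for Tinagl1, 3.01e-08 for Vtn and 0.00028 for Anpep. Cav1 at 0.0092 and Abcc9 at 0.00334 also have an adjusted p-value under 0.05 in the authors' deposited table but are not marked there. No source used here describes their test, and with 1 column per genotype the replicates behind it are unknown. The authors' fold values derive from the same 2 count columns, so these marks are not a separate check. Slco1a4 and Tinagl1 were measured only through their control reads. The 34 genes were chosen with earlier results of these data known, so 11.8% cannot be read as an excess.

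Other vascular genes came from lists written with earlier results of these data known. Of 40 further endothelial genes 37 were measured, 5 (13.5%) at least 1.5-fold lower and 1 (2.70%) higher, against 5.43% lower and 3.52% higher over all measured genes. Their median log2 ratio was -0.13, and the summed reads of the list gave -0.14 (-0.19 to -0.09). Cldn5, the main claudin of brain endothelium, had 260 reads in each library, and Cdh5, the endothelial cadherin gene, had 259 knockout and 309 control reads at -0.31 (-0.56 to -0.07). The lower genes were Icam2 at -1.03 (-2.06 to -0.12), Ocln, the tight junction gene occludin, at -1.01 (-1.85 to -0.23), Clec14a at -0.92 (-1.83 to -0.09) and, named after their values were seen, Ecscr at -0.76 (-1.44 to -0.12) and Itm2a at -0.63 (-0.92 to -0.33). Higher in the knockout library was Tal1, a factor of blood and endothelial precursors that midbrain and diencephalic neurons also use, with 57 knockout and 11 control reads at 2.27 (1.37 to 3.40). The barrier and transporter list had 21 measured genes, 0 lower by 1.5-fold and 2 higher, Marveld2 at 0.71 (-0.60 to 2.21) and Foxq1 at 0.61 (-0.13 to 1.40), neither beyond counting error. Slc2a1, the glucose transporter of the barrier named here after its values were seen, had 608 knockout and 651 control reads.

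Signals to vessels lay mostly within 1.5-fold. On this list 29 genes were measured, 2 of them (6.90%) below and 0 above the 1.5-fold limits, and the median was -0.06. Over all measured genes 5.43% were lower and 3.52% higher by that fold. Vegfa, the main vascular growth factor, had 699 knockout and 651 control reads at 0.05 (-0.11 to 0.20), and Wnt7b, a neural Wnt ligand that induces the barrier, had 1919 knockout and 1536 control reads at 0.26 (0.17 to 0.36). Both Vegfa and Wnt7b were named after their values were seen. Cxcl12, a chemokine gene of meninges and vessels, had 207 knockout and 418 control reads, a log2 ratio of -1.07 (-1.32 to -0.83). Fzd4, a Wnt and norrin receptor of endothelium, was the other lower gene, with 24 knockout and 36 control reads at -0.63 (-1.45 to 0.14). Of 23 measured further mural genes, 2 (8.70%) were lower and 2 (8.70%) higher, with a median of -0.03. Notch3, a receptor of mural cells, had 672 knockout and 646 control reads at 0.0004 (-0.16 to 0.16), and Cspg4, the proteoglycan NG2 of pericytes and oligodendrocyte precursors, had 132 knockout and 95 control reads at 0.42 (0.03 to 0.81). The mural genes furthest apart were Tbx18, a T-box factor of mural and meningeal cells, with 14 knockout and 44 control reads at -1.67 (-2.69 to -0.81), Ebf1, a factor of mural cells and striatal neurons, with 497 knockout and 192 control reads at 1.31 (1.07 to 1.56), and Higd1b with 16 knockout and 7 control reads at 1.08 (-0.23 to 2.66). Tpm2, a tropomyosin gene, was the second lower one, with 31 knockout and 46 control reads at -0.62 (-1.33 to 0.06).

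Markers of other tissues also differed between the libraries, and their part in the vascular values was not tested. For the counts below, 5.43% of all measured genes were lower and 3.52% higher by 1.5-fold or more. Of 18 meningeal fibroblast genes measured, 16 lay 1.5-fold or more lower, and their list summed to 97.0 CPM in the knockout library and 375.6 CPM in the control library; Col1a1, a collagen gene, had 17 knockout and 455 control reads and Dcn, the decorin gene, 10 knockout and 152 control reads. Of the meningeal markers Slc22a6, a transporter gene, was at 0 knockout reads, with 29 in the control library. Fbln1 was level, with 476 knockout and 429 control reads, and held 53.4 CPM of the knockout sum. Crabp2 was higher, with 52 knockout and 32 control reads at 0.64 (-0.02 to 1.33). Fbln1 and Crabp2 were named after their values were seen. Of 12 measured choroid plexus genes, 10 were lower, and the list summed to 150.4 CPM in the knockout library and 950.7 CPM in the control library. Prlr, named after its values were seen, was higher, with 14 knockout and 7 control reads at 0.89 (-0.46 to 2.49). Ttr, the transthyretin gene, had 12 knockout and 6025 control reads. Calml4, with 26 control reads, and Kcnj13, with 11 and so not measured, were at 0 in the knockout library. Tmem72, singled out after its values were seen, had 1200 knockout and 1237 control reads and made up most of the knockout sum. Without it the list summed to 15.9 CPM in the knockout library and 806.5 CPM in the control library, a log2 ratio of -5.66 (-5.91 to -5.42). The median log2 ratio was -3.69 for the meningeal list and -4.22 for the choroid plexus list, or -3.62 and -3.35 with genes at 0 knockout reads set to the floor. On these lists 4 meningeal and 3 choroid plexus genes were measured only through their control reads. Those genes could not have been level, and the counts and medians include them. Meninges and choroid plexus both hold vessels, fibroblasts and smooth muscle of their own. The microglia and macrophage list, with 3 of 13 lower, 1 higher and 9 within 1.5-fold, summed to 73.7 CPM in the knockout library and 93.3 CPM in the control library. Its lower genes were Lyve1 (5 knockout and 31 control reads), Mrc1 (21 and 109) and C1qb (45 and 72), and Trem2 was higher (21 and 13). The erythroid list, with 1 of 8 lower, summed to 268.2 CPM in the knockout library and 326.1 CPM in the control library, a log2 ratio of -0.28 (-0.36 to -0.20). Genes of the diencephalon and ventral forebrain were higher in 9 of 11 cases and summed to 319.2 CPM in the knockout library and 106.8 CPM in the control library, beside the higher values of Tal1 and Ebf1. The cortical list had 0 of 11 genes apart.

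**Figure D4:**
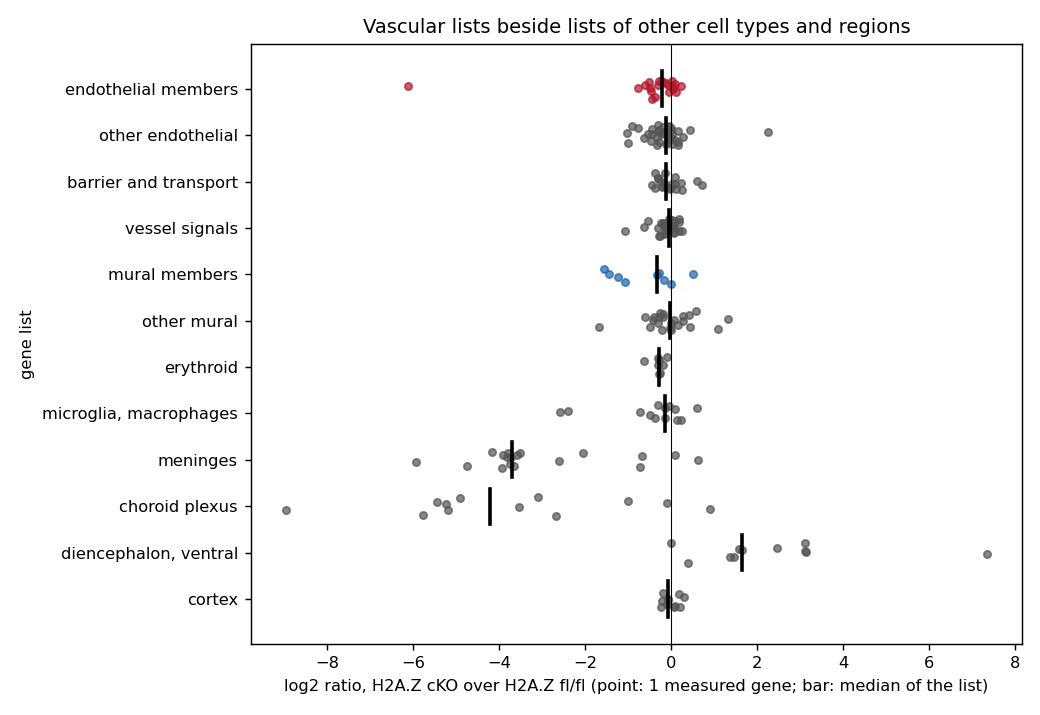
Log2 ratio of knockout over control of each measured gene (points) on the vascular lists and on lists of other cell types and regions, with the median of each list (bars). Vascular medians lie between -0.33 and -0.03, against -3.69 for meninges, -4.22 for choroid plexus and 1.65 for the diencephalic and ventral list.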

How the data were processed

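TruSeq libraries were made from 2 ug total RNA, per the labels' protocols. The design text gives triplicate sequencing; 1 count column per genotype was analysed, which may be 1 library or several combined. Tools named in the submitters' processing notes, without roles, are TopHat2 2.0.12, Bowtie2 2.2.3 and HTSeq 0.6.0, with the build mm9. Gene positions were nevertheless those of GRCm38: 78.8% were identical to GENCODE M21 and 99.3% overlapped the same gene (29 of the 34 vascular genes were identical), so coordinates are given as GRCm38. Symbols came from GENCODE M21 for 19616 of 19720 identifiers. Raw read counts per gene were deposited by the authors, per the file headers. The authors' CPM columns divide each count, with 0 entered as 0.5, by a constant per library. In the authors' fold column control CPM is divided by knockout CPM, and their log2 column follows it, so it runs opposite to the ratios here. No source describes the test behind the authors' p-values. Counts were scaled by TMM in edgeR 4.0.16 (R 4.3.3). Intervals used scipy 1.17.1 in Python 3.11.15. Per-length levels divide CPM by the union of GENCODE M21 exons. Intervals and floors of 3 reads cover counting error only, since 1 column per genotype gives no replicate spread. Reads carry no molecular identifiers, so the intervals treat every read as a separate count. Calculations were tested on simulated counts. The genes, lists and classes were chosen with earlier results of these data known. Named genes were the 34, H2afz and up to 4 measured genes furthest from 0 on each other list. The defining markers Cldn5, Cdh5, Cspg4, Notch3, Col1a1 and Ttr were also named. Outside this rule, Slco1b2, Slco1a6, Kcnj8, Slc2a1, Vegfa, Wnt7b, Dcn, Myh11, Cnn1 and Tbr1 were named. Ecscr, Itm2a, Mcph1, Pcsk7, Fpgs, Kcnj13, Tmem72, Fbln1, Crabp2 and Prlr were likewise outside it. One gene of the cortical list is not reported here and was left out of it. Alternatives were library-total and DESeq2 1.42.0 scaling, other priors, read minimums and folds, other assignments of the shared genes, and sums without the most abundant gene.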

Additional observations from a re-analysis of the deposited data

How the results depend on the processing

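No paired analysis was possible because each genotype had 1 count column, and for the same reason no library could be left out. Medians and summed ratios of both classes kept their sign under every alternative run. Their ranges were -0.24 to -0.16 for the endothelial median, -0.56 to -0.22 for the mural median, -0.21 to -0.15 for the endothelial sum and -0.24 to -0.18 for the mural sum, on the log2 scale. The count of endothelial genes lower was 1 at a fold of 2, against 3, and that of mural genes lower was 1 with at least 100 reads in the sum, against 4. Fewer genes pass these stricter limits by construction. Over the 34 genes, the 1.5-fold call changed for Robo4 with DESeq2 size factors (-0.58), and for Robo4 (-0.57) and Des (-0.47) with a prior of 5 reads, which also moved Slco1a4 to -2.98. The sign changed for Fli1 with library totals (-0.0025) and for Myl9 with DESeq2 size factors (0.0231). Leaving Tmem72 out of the choroid plexus sum, an alternative chosen after seeing the data, moved its log2 ratio to -5.66, against -2.66. Scaling moved the median of all measured genes between -0.0331 and 0.0251. Depth limits Acta2, Tagln, Des, Angpt2, Tinagl1 and Slco1a4, each with 40 reads or fewer in the sum.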
